A study of Mus musculus with 10 samples.

Results

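The junctions described here joined a break on chromosome 6 to the inside of a protein-coding gene on another chromosome. A junction was a member when it lay on chromosomes 1 to 19 or X, but not 6, inside the body of a protein-coding RefSeq gene, and more than 2 kb from either end of any protein-coding gene. Of 68433 junctions in all 10 libraries, 13332 were such trans junctions, on a chromosome other than 6, and 6688 of these were members. The other trans junctions lay within 2 kb of a gene end (2300) or between genes (4344). The distance limit mattered for many junctions: 421 members lay over 2 to 3 kb from a gene end, and 710 junctions in gene bodies lay over 1 to 2 kb from an end and were left out.

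The libraries came from Abelson-transformed pre-B cells of C57BL/6 mice with the genotype Lig4-/-, so all groups, controls included, lacked the ligase of classical end joining. All cells were held in G1 with imatinib for 48 h, and all carried the bait break, cut by a zinc-finger nuclease that doxycycline (1 µg/ml) induced. The untreated and the etoposide group had 2 libraries each. The other 6 groups had 1 library: IFN or DRB alone, each of these combined with etoposide, AsiSI alone, and AsiSI combined with DRB. Etoposide was given at 50 µM for 2.5 h with 12 h of recovery, DRB for 2 h beforehand and then throughout, and AsiSI was activated with 1 µM tamoxifen 20 h after doxycycline. The labels spell out neither what IFN stands for nor whether replicates were separate cultures, so p-values over libraries measure only a spread between libraries that may be technical. Junction files hold joined DNA and no transcripts, so the labelled cell type could not be checked against marker expression.

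Topoisomerase II cuts both strands of DNA to relieve the twist and tangles that arise when polymerases move along a gene, and etoposide traps the enzyme in the cut state. Transcribed genes are known sites of such trapped cuts. DRB blocks the kinase that releases RNA polymerase II into elongation, and AsiSI is a restriction enzyme that cuts a fixed sequence wherever it is accessible. A cell without Lig4 joins broken ends by alternative pathways, which often use a few bases that both ends share.

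The joints themselves are shown first, because the bait end they used and the bases they shared set the etoposide libraries apart. Each line gives 25 bases of the bait on chromosome 6, then the bases shared by bait and prey or inserted between them in capitals, then 45 bases of the prey, all 5′ to 3′ as read. The first 6 came from the etoposide libraries and lay in the 6 genes with the most members there, Ebf1 being taken by alphabet from the genes with 10. For each of these genes a joint at one of the 2 bait ends used most in those libraries was chosen. The last 4 came from the AsiSI libraries and lay at the places hit most often in the series. A direct joint has no capitals.
Gse1, chr8:120501215, etoposide, replicate 1: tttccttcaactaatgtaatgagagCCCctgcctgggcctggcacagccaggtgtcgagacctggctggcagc
Rere, chr4:150404199, etoposide, replicate 2: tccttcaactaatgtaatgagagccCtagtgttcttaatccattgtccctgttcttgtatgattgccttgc
Mtss1, chr15:58982952, etoposide, replicate 1: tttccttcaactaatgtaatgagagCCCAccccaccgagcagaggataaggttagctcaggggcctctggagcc
Trio, chr15:27859815, etoposide, replicate 1: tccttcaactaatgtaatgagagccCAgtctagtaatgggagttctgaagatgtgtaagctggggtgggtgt
Ebf1, chr11:44996548, etoposide, replicate 1: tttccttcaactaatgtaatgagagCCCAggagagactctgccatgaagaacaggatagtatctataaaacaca
Arid1b, chr17:5023701, etoposide, replicate 1: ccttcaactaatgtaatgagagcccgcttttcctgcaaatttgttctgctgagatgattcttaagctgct
Gtf3c4, chr2:28835300, AsiSI: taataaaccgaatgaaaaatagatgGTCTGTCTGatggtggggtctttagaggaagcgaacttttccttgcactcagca
Gtf3c4, chr2:28835300, DRB with AsiSI: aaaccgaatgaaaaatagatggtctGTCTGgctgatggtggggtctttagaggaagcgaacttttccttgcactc
Kdm4b, chr17:56349280, AsiSI: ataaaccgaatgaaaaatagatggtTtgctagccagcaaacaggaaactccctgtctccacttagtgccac
Ets1, chr9:32696939, AsiSI: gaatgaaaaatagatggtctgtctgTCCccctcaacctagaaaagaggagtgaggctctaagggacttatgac
The bait part ended at position 41554901 or 41554902 of chromosome 6 in the etoposide joints, and at 41554962 to 41554972 in the AsiSI joints. In Kdm4b the capital T is an inserted base. In the others the capitals are bases aligned to both bait and prey. They run from 1 base in Rere to 9 in the Gtf3c4 joint of the AsiSI library. The 2 Gtf3c4 reads start the prey at the same position but differ at 1 of these 9 bases. Shared bases were thus counted from overlapping alignments, which can hold a mismatch.

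With etoposide, more of the trans junctions fell inside gene bodies. The proportion was 55.1% (95% exact interval 53.9 to 56.3, 3548 of 6441 junctions) in etoposide replicate 1 and 55.2% (53.0 to 57.4, 1131 of 2049) in replicate 2. It was 34.2% (30.5 to 38.1, 211 of 617) in untreated replicate 1 and 38.4% (32.2 to 44.8, 94 of 245) in replicate 2. Both etoposide libraries lay above both untreated ones, and gene-body positions of this kind cover 35.9% of the 2481 Mb of these chromosomes. Untreated replicate 1 had 89 of its 617 trans junctions, and 0 members, in recurrent 20-kb windows, and without those windows the untreated values were 39.96% and 37.97% and the etoposide values 55.7% and 55.4%. All such intervals cover counting error only.

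The group mean was 55.1% ± 0.0799 (SD, n = 2) for etoposide, while the untreated mean was 36.3% ± 2.95 (SD, n = 2), a difference of 18.9 percentage points. By exact permutation of the libraries (two-sided) p was 0.333, and 2 libraries against 2 cannot reach a lower one. Within replicate 1, whose 2 libraries shared a sequencing run, the difference was 20.9 points, and within replicate 2, whose libraries came from different runs, it was 16.8 points. Fisher's exact test on single libraries, adjusted by Benjamini-Hochberg over the 92 comparisons made, gave 1.2e-21 and 5.5e-06. For replicate 2, run and treatment cannot be told apart. The same holds wherever IFN with etoposide is set against IFN, or DRB with etoposide against DRB. Those libraries also came from different runs.

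IFN with etoposide gave 53.7% (51.5 to 55.9, 1077 of 2004) inside gene bodies, and IFN alone 41.8% (33.7 to 50.2, 61 of 146). The odds ratio between them was 1.62 (1.15 to 2.27), with an adjusted p of 0.0201 by Fisher's exact test. Against etoposide replicate 2, which shared its run, IFN with etoposide had an odds ratio of 0.94 (0.83 to 1.07), and against etoposide replicate 1, the control that the labels name, 0.95 (0.86 to 1.05). Both intervals hold 1, so no effect of IFN on this proportion was detectable at this depth.

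With DRB and etoposide together the proportion was lower than with etoposide alone. DRB with etoposide gave 38.0% (30.6 to 46.0, 62 of 163) and DRB alone 31.5% (22.9 to 41.1, 34 of 108), with an odds ratio of 1.33 (0.80 to 2.22) between them. Against etoposide replicate 2, from its own run, DRB with etoposide had an odds ratio of 0.50 (0.36 to 0.69), and against replicate 1 also 0.50. Whether DRB changed the effect of etoposide itself was not settled by these numbers: the odds ratio for etoposide with DRB over that in replicate 2 was 0.67, with an interval of 0.38 to 1.20. The AsiSI libraries gave 30.4% (215 of 708) and, with DRB, 29.96% (255 of 851), an odds ratio of 0.98 (0.79 to 1.22).

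**Figure D1:**
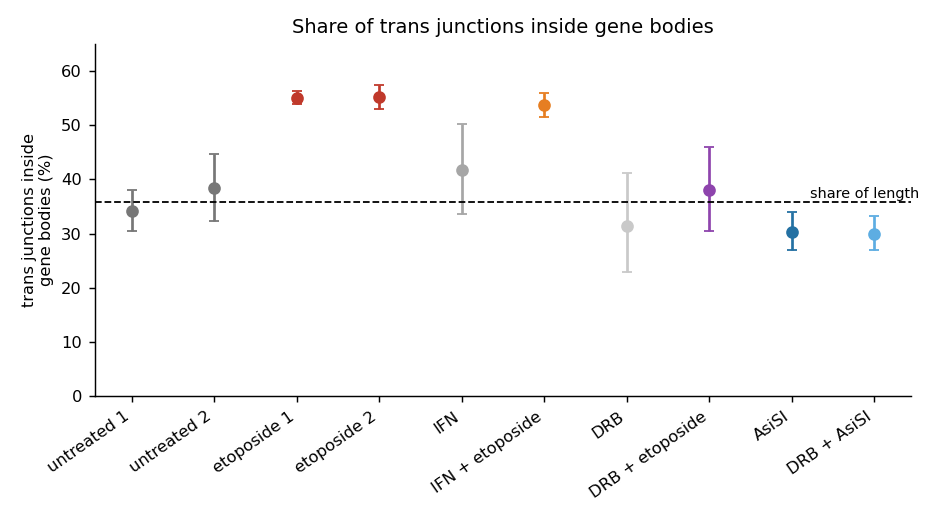
Percent of trans junctions inside gene bodies in each of the 10 libraries (points) with exact 95% binomial intervals (bars); the dashed line is the 35.9% of chromosome length that such positions cover. The etoposide libraries and IFN with etoposide lie at 53.7% to 55.2%, and the other 7 libraries lie between 29.96% and 41.8%.

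The number of members was also higher with etoposide when it was set against the junctions within 1 Mb of the bait break, a denominator that trans junctions do not enter. There were 2962 members per 1000 junctions near the bait in etoposide replicate 1 and 282 in replicate 2, against 188 and 17.8 in the untreated libraries. The groups did not overlap, and replicate 1 was higher than replicate 2 in both of them. On the log2 scale the difference was 3.98 within replicate 1 and 3.98 within replicate 2, with an exact permutation p of 0.333. The difference of group means was 2.28 without etoposide replicate 1 or without untreated replicate 2, and 5.68 without either of the others. IFN with etoposide had 335 per 1000 and IFN alone 16.8. DRB with etoposide had 27.5 and DRB alone 10.8, and the AsiSI libraries had 28.9 and, with DRB, 24.3.

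The etoposide junctions were spread over many genes. Gene-body positions more than 2 kb from any gene end existed in 16603 of 20505 protein-coding genes, and 2867 genes held a junction in an etoposide library. Of these, 1915 were hit once and 103 at least 5 times. Genes over 100 kb held junctions more often than shorter ones when counted per gene, and genes over 300 kb held the fewest when counted per Mb.

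Per gene, 37.2% of the 516 genes over 300 kb were hit in etoposide replicate 1, as were 35.1% of the 1771 genes of 100 to 300 kb, 17.7% of the 7147 genes of 20 to 100 kb and 3.79% of the 7169 genes under 20 kb. The same shares in replicate 2 were 17.6%, 16.1%, 6.81% and 1.41%, so those of the longest 2 classes lay close together in both libraries. Per length the order was the opposite. Set against what an even spread of all trans junctions along the chromosomes would place there, genes under 20 kb held 2.60 (95% Poisson interval 2.33 to 2.91) and 2.63 (2.15 to 3.20) times that number in etoposide replicates 1 and 2. Genes of 20 to 100 kb held 2.37 and 2.24 times, genes of 100 to 300 kb held 1.54 and 1.67 times, and genes over 300 kb held 0.53 (0.48 to 0.58) and 0.54 (0.45 to 0.64) times. IFN with etoposide followed the same order, with 2.54, 2.27, 1.59 and 0.48.

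In the untreated libraries the interval held 1 in every length class. Genes under 20 kb held 1.10 (0.59 to 1.89) and 1.497 (0.60 to 3.09) times the even spread, and genes over 300 kb held 0.82 (0.63 to 1.06) and 1.09 (0.74 to 1.55) times. The AsiSI libraries lay above 1 in the shortest class and below it in the longest, with 1.70 (1.08 to 2.55) under 20 kb and 0.62 (0.46 to 0.82) over 300 kb without DRB, and 1.60 (1.05 to 2.35) and 0.72 (0.56 to 0.91) with it. DRB with etoposide held 0.96 (0.20 to 2.82) and 0.69 (0.37 to 1.18), values that rest on 3 and 13 junctions. In genes of 20 to 100 kb it held 1.60 (1.08 to 2.29) times, from 30 junctions, an interval above 1. In genes of 100 to 300 kb it held 0.90 (0.51 to 1.46) times. A single gene of 18.1 kb, Gtf3c4, weighed on the shortest class. It held 9 of its 23 junctions in AsiSI, 7 of 26 in DRB with AsiSI, and all 3 in DRB with etoposide. In untreated replicate 2 it held 4 of 7.

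Of the members themselves, 11.1% (393 of 3548) and 11.3% (128 of 1131) lay in genes over 300 kb in the etoposide libraries, against 28.0% (59 of 211) and 33.0% (31 of 94) in the untreated ones. The etoposide libraries were both lower and did not overlap the untreated ones. The means were 11.2% ± 0.170 and 30.5% ± 3.55 (SD, n = 2 each), which put etoposide lower by 19.3 points, with an exact permutation p of 0.333. Within the shared run of replicate 1 the odds ratio was 0.32 (0.23 to 0.44), with an adjusted p of 1.3e-09 by Fisher's exact test. IFN with etoposide had 10.4% and IFN 24.6%, an odds ratio of 0.35 (0.19 to 0.64). DRB with etoposide had 20.97% (13 of 62) and DRB 23.5% (8 of 34). Against etoposide replicate 2 the former had an odds ratio of 2.13 (1.14 to 3.996), with an adjusted p of 0.11, which missed the threshold of 0.05.

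**Figure D2:**
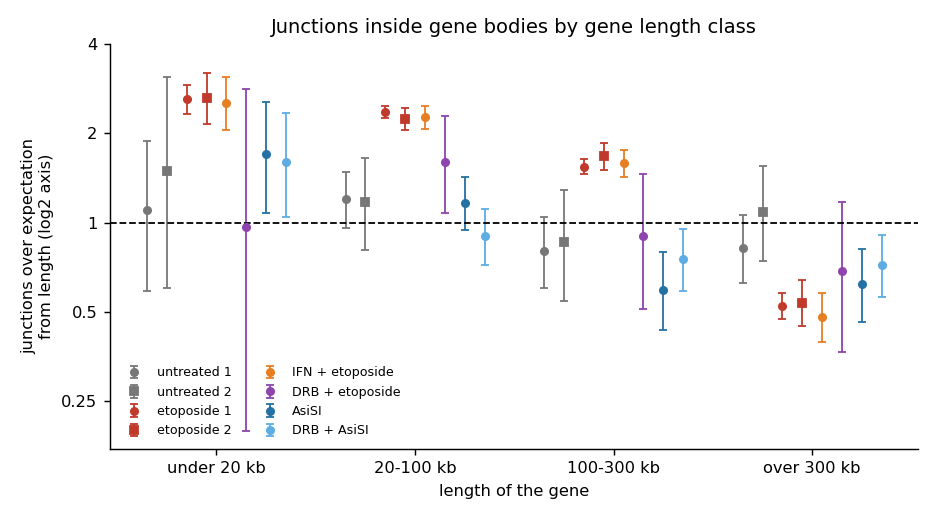
Junctions inside gene bodies over the number an even spread of trans junctions by length would give (log2 axis), for 4 gene length classes and 8 libraries; bars are exact 95% Poisson intervals and the dashed line marks 1. In the etoposide libraries the ratio runs from about 2.60 under 20 kb to 0.53 over 300 kb, while the untreated intervals hold 1 in each class.

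Of the 15 genes with most members in the etoposide libraries, 13 were over 100 kb long. Gse1 (chr8:120228501-120581383), a cofactor of a chromatin repressor complex, held 8 junctions in replicate 1 and 4 in replicate 2. Rere (chr4:150281511-150621966), a nuclear receptor coregulator, held 9 and 3. Arid1b (chr17:4994297-5347656), a subunit of the BAF chromatin remodelling complex, held 8 and 3, and Mtss1 (chr15:58941234-59083956), an actin-binding scaffold, 7 and 4. Trio (chr15:27730649-28025848), a guanine nucleotide exchange factor of small GTPases, held 9 and 2. None of these 5 held a junction in an untreated, IFN, DRB or AsiSI library, which together held far fewer members.

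The B-lineage list held some of the most hit genes. Ebf1 (chr11:44618100-45008096), a transcription factor that specifies the B lineage, held 8 junctions in etoposide replicate 1 and 2 in replicate 2. Blnk (chr19:40928927-40994221), the adaptor that links the pre-B-cell receptor to its signalling enzymes, held 6 and 3 in only 65.3 kb. Pax5 (chr4:44524748-44710694), which holds cells to the B lineage, had 3 and 5, and Bach2 (chr4:32238413-32586109), a repressor active in B cells, 3 and 4, with 3 more in IFN with etoposide. Counted per 100 kb of gene-body positions over both etoposide libraries, Blnk held 14.7 junctions, Pax5 4.40, Ebf1 2.59 and Bach2 2.04.

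The other genes of the top 15 held 8 to 10 junctions over both etoposide libraries. They included Hivep3 (9 and 1), a zinc-finger transcription factor, Mtor (8 and 2), the growth-regulating kinase, and Cux1 (6 and 3), a homeodomain transcription factor. Arhgap24 (8 and 1) is a Rac GTPase-activating protein, Celf2 (8 and 1) a splicing regulator, Snx29 (8 and 1) a sorting nexin and Rgl1 (9 and 0) an exchange factor of Ral. B4galt1 (8 and 0), a galactosyltransferase, was taken by alphabet from the 10 genes with 8 junctions, Pax5 among them. Replicate 1 held about 3 times the members of replicate 2, so most genes had more there. Of these 15 genes, 14 held no junction in either AsiSI library, and Cux1 held 1. The AsiSI libraries hit only 184 and, with DRB, 218 of the 16603 genes with such positions. Most genes therefore held none there, and the count says little of these 15.

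Short genes gave high rates from few junctions. Under 20 kb, Cd81 (chr7:143052750-143067930), a tetraspanin of the B-cell coreceptor, held 2 and 2, which is 35.8 per 100 kb. Slco4a1 (chr2:180456226-180474853), an organic anion transporter, held 3 and 1. Cisd1, an iron-sulfur protein of mitochondria, held 2 and 0, Dnaja1, a chaperone, held 2 and 0, and each had 1 more in IFN with etoposide.

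Genes hit repeatedly were shared in part between the etoposide libraries. Genes with at least 2 members numbered 693 in replicate 1 and 131 in replicate 2, and 66 were in both, which is 9.52% of the first list and 50.4% of the second. IFN with etoposide had 121 such genes, of which 40 were in the list of replicate 1 (33.1% of the shorter list) and 14 in that of replicate 2. Untreated replicate 1 had 12 such genes, and 2 were in the list of etoposide replicate 1. The overlap was not tested, and long genes, which are hit more often per gene, were in both lists.

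Gene groups differed widely in junctions per length. The 7 lists were chosen with earlier results of these data known, so their counts are descriptions. All genes together held 1.53 times the even spread in etoposide replicate 1 and 1.54 times in replicate 2. The 30 B-lineage genes held 6.53 (4.799 to 8.69, 47 junctions) and 9.61 (6.02 to 14.6, 22 junctions) times, and 18 of the 30 were hit in an etoposide library. The share of members hit was 13.98% over all genes, whose median length was 17.3 kb against 73.8 kb for this list. It was also high, at 53.3% and 57.1%, for the long neural and fragile site lists described below, whose values per length were low, so it says little of a list without its length. The untreated libraries also had values above 1 for this list, at 5.80 (1.58 to 14.9) and 3.65 (0.0925 to 20.4), but from 4 junctions and 1. In DRB with AsiSI the list held 13 junctions, 13.7 (7.28 to 23.4) times the even spread, and in AsiSI alone 4. Ets1 and Ikzf1 held 12 of these 13 and all 4, so these values are those of 2 genes.

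Genes of other blood lineages stood lower. Their 24 members held 9 and 6 junctions in the etoposide libraries, 1.63 (0.747 to 3.10) and 3.42 (1.26 to 7.45) times the even spread. Camk4, a calcium-dependent kinase, held the most, 1 and 4. Mecom, a transcription factor of blood stem cells, held 3 and 0, beside 1 in untreated replicate 1. Skap1, a T-cell adaptor, held 1 and 1, and 1 in untreated replicate 2.

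Long neural genes gave the lowest value of the 7 lists in both etoposide libraries. The 30 genes of this list span 40.3 Mb of gene-body positions, with a median length of 1210 kb, yet held 15 junctions in etoposide replicate 1, 5 in replicate 2 and 5 in IFN with etoposide. These were 0.14 (0.0802 to 0.236), 0.15 (0.0487 to 0.350) and 0.15 (0.0498 to 0.358) times the even spread. The untreated libraries held 9 and 5 there, 0.90 (0.41 to 1.70) and 1.26 (0.408 to 2.93) times, and the AsiSI libraries 10 and 8, 0.87 and 0.58 times. Lrp1b, a receptor of 2058 kb on chromosome 2, held 2 and 0 with etoposide and 1 in AsiSI. Galntl6, a glycosyltransferase-like gene, held 2 and 0. Il1rapl1 on the X chromosome, a synaptic adhesion protein, held 0 and 2.

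Common fragile site genes, the long genes that break under replication stress in dividing cells, had values below those of all genes with etoposide. The 14 of them held 15 and 9 junctions, 0.44 (0.244 to 0.718) and 0.82 (0.376 to 1.56) times the even spread, and IFN with etoposide held 1 (0.0933, 0.00236 to 0.520). The median length of the list was 922 kb. Genes over 300 kb as a whole held 0.53, 0.54 and 0.48 times in these libraries, values inside the list's intervals. The low values were thus not particular to this list among long genes. Untreated replicates 1 and 2 held 2 and 3 junctions in the list, 0.61 and 2.29 (0.47 to 6.69) times. Rad51b, a recombination protein, held 2 and 4, Vps13b, a lipid transfer protein, 5 and 1, Wwox, an oxidoreductase, 2 and 2, and Lpp, a focal adhesion protein, 3 and 0.

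The lists of general regulators lay above the value for all genes in both etoposide libraries. The 37 chromatin regulators held 49 and 14 junctions, 3.35 (2.48 to 4.43) and 3.01 (1.64 to 5.05) times the even spread. Hdac4, a histone deacetylase, held 5 and 1, with 1 in each untreated library, and Chd2, a chromatin remodeller, 1 and 3. The 28 genes of splicing and RNA processing held 29 and 9, 3.97 (2.66 to 5.69) and 3.87 (1.77 to 7.34) times. Of these, Rbms1, an RNA-binding protein, held 4 and 1, and Mbnl1, a splicing regulator, 3 and 0. The 23 ubiquitin ligases on these chromosomes held 17 and 8, 2.11 (1.23 to 3.38) and 3.13 (1.35 to 6.16) times. Both intervals of the ligases hold the value of all genes, 1.53 and 1.54. Among the ligases Fbxl17 held 2 and 1, Ubr4 1 and 2, and Mycbp2 0 and 1.

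Chromosomes differed less than gene groups. In etoposide replicate 1 the members per Mb of gene-body positions ran from 0.52 (0.42 to 0.65) times the average on the X chromosome to 1.34 (1.19 to 1.51) on chromosome 11, and replicate 2 gave 0.60 and 1.29 for the same chromosomes. Chromosome 19 had 1.31 and 1.40. The lowest value in replicate 2 was that of chromosome 16, at 0.54 (0.35 to 0.79), where replicate 1 had 0.97 (0.82 to 1.14). The labels do not give the sex of the cells, so the copies of the X chromosome are unknown.

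Along the gene, etoposide junctions were nearly even, with ratios slightly above 1 near the start. Position and orientation needed the direction of the gene, which the reference held for 5240 of the 6636 members that lay in exactly 1 gene body (79.0%), and for 82.0% of those off chromosome 18. Chromosome 18 was therefore left out of these values, and 52 members in several gene bodies were too. The first 1 of 5 equal parts of the gene held 20.1% of the junctions in etoposide replicate 1 (563 of 2803) and 20.0% in replicate 2 (174 of 868), against 14.9% (26 of 174) and 14.7% (10 of 68) in the untreated libraries. The etoposide values both lay higher. The difference was 5.24 points, with an exact permutation p of 0.333, and within the replicate 1 pair Fisher's exact test gave an adjusted p of 0.30.

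Against the even spread over the same genes, the first part held 1.18 (1.08 to 1.28) times the expected number in etoposide replicate 1, 1.17 (1.00 to 1.36) in replicate 2 and 1.12 (0.95 to 1.31) in IFN with etoposide. Positions 2 to 10 kb from the start held 1.19 (1.10 to 1.29), 1.12 (0.96 to 1.297) and 1.15 (0.99 to 1.33) times. The last part held 1.00 (0.91 to 1.10), 0.96 (0.81 to 1.13) and 1.17 (1.003 to 1.36) times in the same order, so in IFN with etoposide it was the last part whose interval lay above 1. In genes under 20 kb the first part held 0.81 (0.45 to 1.33) and 0.57 (0.12 to 1.65) times in the etoposide libraries and 2.75 (1.42 to 4.796) in IFN with etoposide. Untreated libraries had 0.84 (0.55 to 1.23) and 0.82 (0.39 to 1.502) in the first part.

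**Figure D3:**
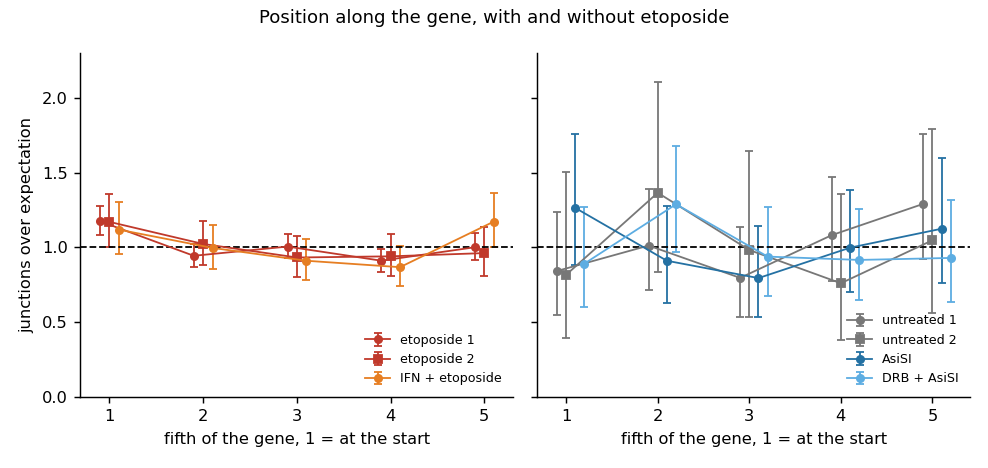
Junctions over the number expected from an even spread along the same genes, in 5 equal parts from the start of the gene; left, etoposide and IFN with etoposide, right, untreated and AsiSI libraries, with exact 95% Poisson intervals. The etoposide replicates lie at 1.18 and 1.17 in the first part and between 0.91 and 1.02 in the others, and the intervals on the right hold 1 in every part.

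Prey reads ran in the direction of the gene about as often as against it. The same direction was seen in 48.2% (46.4 to 50.1, 1352 of 2803) and 48.0% (44.7 to 51.4) of the members in the etoposide libraries and in 52.3% (44.6 to 59.9) and 52.9% (40.4 to 65.2) in the untreated ones. The groups did not overlap, and the difference was -4.48 points with an exact permutation p of 0.333. In single libraries the intervals held 50 with the exception of IFN with etoposide, at 45.4% (42.0 to 48.8, 386 of 851). It did not differ from etoposide replicate 2 past the threshold (odds ratio 0.90, 0.74 to 1.09). In etoposide replicate 1 the first part of the gene had 43.5% (39.4 to 47.7) in the same direction and the other 4 parts 47.9% to 50.2%, but the lowest part was not the same elsewhere. In replicate 2 the first part had 46.0% and the last 45.4%, and in IFN with etoposide the first had 47.8% and the fourth 40.4% (32.7 to 48.4).

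Close pairs of members were a small share of all pairs in the etoposide libraries and a larger one in most others. DRB had 0 pairs, and IFN had 1, of identical positions. A single place held many of the pairs outside the etoposide libraries. The share of pairs of members within 1 kb of each other, which does not grow with depth, was 41.5 and 18.8 per 1000000 pairs in the etoposide libraries and 20.7 in IFN with etoposide. With identical positions counted once these became 25.1, 11.1 and 17.3. AsiSI gave 1913 and DRB with AsiSI 1081 per 1000000. The untreated libraries gave 406 and 1601, from 9 and 7 pairs, and DRB with etoposide 1058, from 2. Counting identical positions once gave 279 in untreated replicate 1, from 6 pairs, 1833 in AsiSI and 956 in DRB with AsiSI. Without the most hit 1 kb, which lies in Gtf3c4, AsiSI gave 743, DRB with AsiSI 615 and the untreated libraries 406 and 250 (1 pair), while the etoposide libraries stayed at 41.5 and 18.8. This alternative was added after the data had been seen.

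Gtf3c4 (chr2:28822299-28840360), a subunit of the RNA polymerase III factor TFIIIC, held that place. It held 9 members in AsiSI and 7 in DRB with AsiSI, and also 4 in untreated replicate 2, 2 in IFN, 3 in DRB with etoposide and 1 each in etoposide replicate 2 and IFN with etoposide. In all, 21 of its 27 members lay in 1 kb (chr2:28835000-28835999), within 268 bases of each other, from 7 libraries. Of these, 14 prey reads ran toward higher coordinates and 7 toward lower ones. The labels name induction of AsiSI for the AsiSI libraries alone, so the 4 junctions of untreated replicate 2 at this place came from cells with no such label.

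Ets1 (chr9:32636241-32757820), a transcription factor of lymphocytes, held 9 members in DRB with AsiSI and 2 in AsiSI, which spanned 22.8 kb of its 121.6 kb. Its junctions in untreated replicate 1 and IFN, 1 each, lay within this span. Its 6 junctions in the etoposide libraries and IFN with etoposide spanned 56.0 kb. Syde2, a GTPase-activating protein, held 5 and 4 in the AsiSI libraries within 7.7 kb and none elsewhere. Kdm4b, a histone demethylase, held 4 and 3 within 5.4 kb, and 2 in DRB with etoposide. Ikzf1, the lymphoid transcription factor Ikaros, held 2 and 3 in the AsiSI libraries within 9.0 kb, and 3, 1 and 3 in the etoposide libraries and IFN with etoposide. Within the span of its AsiSI junctions also lay 1 junction each of untreated replicate 1, untreated replicate 2, IFN and etoposide replicate 1. The 2 Kdm4b junctions of DRB with etoposide also lay within the AsiSI span. The places in Ets1, Kdm4b and Ikzf1 were therefore not particular to the AsiSI libraries, while Syde2 held members only there.

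Repeated hits without etoposide or AsiSI were few. Over the untreated, IFN and DRB libraries, Gtf3c4 held 6 members, Ikzf1 4, and Cemip2, Ptpa and Tmem229b 3 each. The letters of the AsiSI site, GCGATCGC (the same on both strands), were in the prey part of 0 members of either AsiSI library, and in 0 members of the other libraries. Of 470 members in the 2 AsiSI libraries, none therefore read across an intact site. The prey part starts at the junction, so an end cut inside the site would show only a part of it. Prey parts that began with CGC, the letters that end the site, numbered 0 in members of AsiSI and 0 in DRB with AsiSI. Gene-end junctions of these libraries had 2 and 4, and members of etoposide replicate 1 had 12. These counts do not tell whether AsiSI cut at a member, which was not tested.

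**Figure D4:**
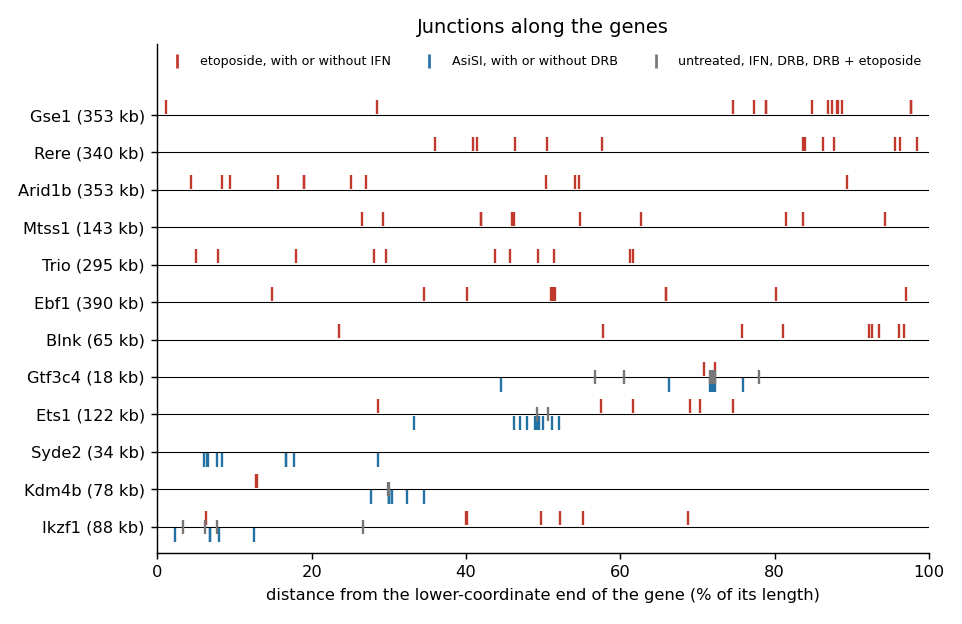
Position of each member (ticks) along 12 genes, as a percent of the gene's length from its lower-coordinate end: etoposide with or without IFN above the line, AsiSI with or without DRB below it, all other libraries on it. Etoposide junctions spread over up to 341.0 kb of Gse1, while the AsiSI junctions of Gtf3c4 span 5.7 kb and those of Syde2 7.7 kb.

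At the joint, members in the etoposide libraries more often shared 2 or more bases with the bait and rarely had insertions. These joint measures were chosen after the data had been seen. The bait and prey shared 2 or more bases in 74.3% (72.9 to 75.8, 2637 of 3548) and 75.7% (73.1 to 78.2, 856 of 1131) of the members with etoposide, against 37.9% (31.3 to 44.8, 80 of 211) and 50.0% (39.5 to 60.5, 47 of 94) without. The groups did not overlap. The median was 3 shared bases in both etoposide libraries, and 1 and 1.5 in the untreated ones. The mean was 3.17 with etoposide and 3.14 without in replicate 1, and 3.02 and 2.03 in replicate 2. Overlaps of 6 or more bases were found in 14.4% and 12.0% with etoposide, and in 18.5% and 4.26% without. DRB alone had 20.6% of such overlaps, 7 of 34 members. For 2 or more shared bases the difference between the group means was 31.0 points, with an exact permutation p of 0.333. Within the shared run of replicate 1 the odds ratio was 4.73 (3.55 to 6.30).

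Inserted bases were found in 3.27% (116 of 3548) and 2.92% (33 of 1131) of the members with etoposide, and in 18.01% (38 of 211) and 16.0% (15 of 94) without. IFN with etoposide had 2.97% insertions and 75.5% with 2 or more shared bases, against 11.5% and 41.0% for IFN. DRB with etoposide had 14.5% (9 of 62) and 54.8% (34 of 62), close to the 17.6% and 55.9% of DRB alone. The odds ratio of etoposide for 2 or more shared bases was 0.96 (0.42 to 2.21) with DRB and 3.11 (2.03 to 4.75) in replicate 2. The former over the latter was 0.31 (0.12 to 0.79), an interval that does not hold 1 and covers counting error only. AsiSI members had 29.8% insertions and, with DRB, 23.9%.

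**Figure D5:**
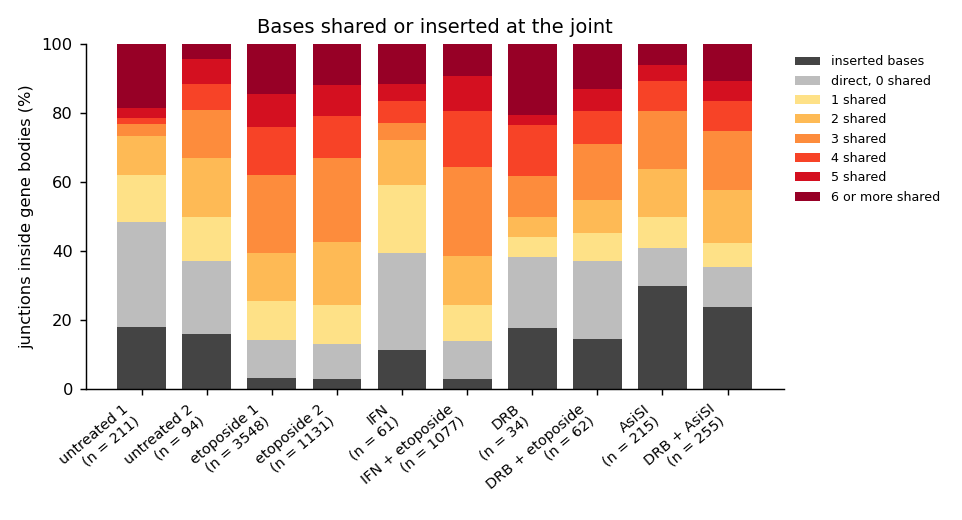
Percent of members in each library (bars, with the number of members) whose joint had inserted bases, was direct, or shared 1 to 6 or more bases between bait and prey. Inserted bases take 3.27%, 2.92% and 2.97% in the etoposide libraries and IFN with etoposide, and 11.5% to 29.8% in the others.

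Some of these measures differed between gene bodies and the space between genes in the same library. In etoposide replicate 1 the inserted share was 3.27% inside gene bodies and 8.62% between genes (155 of 1798), an odds ratio of 0.36 (0.28 to 0.46) with an adjusted p of 1.2e-14 by Fisher's exact test. In replicate 2 it was 2.92% and 6.95%, an odds ratio of 0.40 (0.25 to 0.65). In IFN with etoposide the values were 2.97% and 5.30%, with an adjusted p of 0.069, which missed the threshold. Junctions at gene ends were as low or lower, at 3.29%, 1.12% and 0.58% in these 3 libraries, so low insertion was not particular to gene bodies. In the untreated libraries the odds ratios were 1.00 (0.65 to 1.56) and 0.91 (0.45 to 1.84). The share with 2 or more shared bases was 74.3% inside and 65.4% between genes in etoposide replicate 1, and 75.7% and 67.0% in replicate 2. In IFN with etoposide it was 75.5% and 72.3%, an odds ratio of 1.18 (0.94 to 1.48) with an adjusted p of 0.37.

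The bait end was also concentrated. Positions 41554901 and 41554902 of chromosome 6 together served 16.6% (15.4 to 17.9, 589 of 3548) and 19.7% (17.4 to 22.2, 223 of 1131) of the members with etoposide and 22.6% (243 of 1077) in IFN with etoposide. They served 1 of 211 and 2 of 94 members in the untreated libraries, 1 of 61 in IFN, 0 of 34 in DRB and 3 of 62 in DRB with etoposide. These positions were chosen as those most used in the etoposide libraries, so the difference is a description. Between genes the same positions served 14.4% and 16.6% of the etoposide junctions, so this use was not particular to gene bodies. Near the bait on chromosome 6 they served 3.92% and 1.10%.

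The prey began with more cytosine in the etoposide libraries. Over the first 6 prey bases, C made up 38.1% and 41.7% with etoposide and 43.2% in IFN with etoposide, against 21.01% and 29.1% in the untreated libraries, 30.6% in DRB with etoposide, 28.8% in AsiSI and 32.3% in DRB with AsiSI. At prey bases 21 to 26 of the same reads it was 24.6%, 27.5% and 26.7%. The Gse1 and Mtss1 joints printed above show such starts, but their first letters are bases shared with the bait. All printed etoposide joints were chosen at the most used bait ends, and those of Rere, Trio and Arid1b begin with fewer C. Since the bait ends in CCC or CCCA at the positions most used, the shared bases, which were counted in the prey too, hold C. Without the members at those bait ends the first 6 bases held 34.3%, 37.4% and 38.2%, and over the first 6 bases past the shared ones C made up 32.1%, 35.5% and 36.3%. Past the shared bases the untreated libraries had 22.6% and 30.5%, AsiSI 28.3% and DRB with AsiSI 33.5%. The value of DRB with AsiSI is above that of etoposide replicate 1, but near its own 31.2% at bases 21 to 26. Etoposide replicate 1 had 32.1% past the shared bases and 24.6% at bases 21 to 26. Its share over the first 6 bases was higher, at 38.1%, so part of the difference lay in the shared bases. Gene-end and between-gene junctions of the etoposide libraries also began with C, at 42.0% and 35.5% in replicate 1.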

How the data were processed

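Each row of the authors' deposited files is a single translocation junction with its position, strand and read, per the file headers. The files hold no counts or normalized levels. Libraries were made and read on the MiSeq with the standard pipeline of the assay, per the labels' protocols. The submitters' processing notes list GRCm38.p2, mm10 and bedtools, and an aligner is not given in the sources used here. Libraries held 2044 to 13425 junctions, in 4 sequencing runs by read name: untreated and etoposide replicate 1; untreated replicate 2, IFN and DRB; the other etoposide-treated libraries; both AsiSI libraries. Members had median prey alignments of 259 and 275 bases in the first run and 60 to 87 in the others.

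Gene bodies and strands came from RefSeq tables of GRCm38.p6. Exons were not used here. A member in several bodies went to the shortest gene. Expected numbers came from the gene-body length over 2 kb from any gene end. Libraries were compared by exact permutation and, singly, by two-sided Fisher's exact test, with Clopper-Pearson or Poisson 95% intervals and normal-approximation intervals for odds ratios (Python 3.11.15, scipy 1.17.1, statsmodels 0.14.6). Scripts were tested on simulated data. Named genes were the 15 with most members over the etoposide libraries, 5 each over the untreated, IFN and DRB libraries, over the AsiSI libraries and, under 20 kb, over the 4 etoposide-treated libraries, and up to 4 per list. Some genes that this rule names are not reported here. Members and lists were chosen with earlier results of these data known.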

Additional observations from a re-analysis of the deposited data

Results flagged for a closer look

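The association of etoposide with 2 or more shared bases at the joint differed between cells with and without DRB. The odds ratio with DRB (DRB with etoposide against DRB) divided by that without it (etoposide replicate 2 against untreated replicate 2) was 0.31, with a 95% interval of 0.12 to 0.79. It rests on 62 and 34 members in the DRB libraries, 1 library per group. The measure was chosen after the data had been seen, and the interval covers counting error only. The matching ratios for the gene-body share, 0.67 (0.38 to 1.20), and the bait end share, 0.45 (0.017 to 11.5), had intervals that hold 1. None of these intervals was adjusted for the number of ratios formed.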

How the results depend on the processing

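Alternatives were run for the gene-body share, the rate near the bait, the share in genes over 300 kb and read direction. They were also run for the first part of the gene, shared bases and the most used bait ends. None of these differences between etoposide and untreated changed direction. Common alternatives were identical positions once, 1 or 5 kb from gene ends, and prey alignments of at least 50 bases. Recurrent 20-kb windows and each replicate were also left out in turn. X was left out for the gene-body share alone. The longest gene or members in 1 gene only were used for the share over 300 kb alone. Leaving out the 2 most used bait ends was added after seeing the data. Inserted bases, gene lists and ratios by length class were not rerun. The gene-body share differed by 15.05 to 22.6 points, and the share in genes over 300 kb by -22.2 to -16.8. Leaving out a replicate moved the log2 rate per 1000 near the bait from 3.98 to between 2.28 and 5.68. With the replicate block, the mean within-pair differences equal the unpaired ones (18.9 points and 3.98), and p cannot go below 0.5. No permutation p could pass 0.05, so these tests say nothing about stability. DRB, IFN and DRB with etoposide hold 34 to 62 members, which limits every value from them.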
